A study of Homo sapiens with 17 samples.

Results

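The BCL2 family of apoptosis regulators was examined in RNA-seq libraries of the diffuse large B cell lymphoma lines Karpas-422 and WSU-DLCL2, both established human cell lines. The 10 members were named genes, chosen by symbol: the anti-apoptotic BCL2, MCL1, BCL2L1 and BCL2L2, the effectors BAX and BAK1, and the BH3-only genes BCL2L11, BBC3, PMAIP1 and BMF. All 10 were found by Ensembl identifier among 63677 genes, on chromosomes 18 (BCL2, ENSG00000171791, and PMAIP1, ENSG00000141682), 1 (MCL1), 20 (BCL2L1), 14 (BCL2L2), 19 (BAX and BBC3), 6 (BAK1), 2 (BCL2L11, ENSG00000153094) and 15 (BMF). The 15 libraries fell into 5 groups of 3: Karpas-422 given A-485 for 48 h, untreated Karpas-422, WSU-DLCL2 given A-485 for 48 h, 3 WSU-DLCL2 clones labelled BCL11A knockout, and untreated WSU-DLCL2. Untreated is the name used here for samples of a line whose titles name no treatment or knockout. It does not exclude that they were given a vehicle such as DMSO. A-485 is a catalytic inhibitor of p300 and CBP, which acetylate histones, and BCL11A is a DNA-binding zinc-finger protein needed for B cell development. No unedited clone is among the samples, and the sources used here do not say how BCL11A was disrupted. The labels do not say whether replicates of a line were separate cultures, so the p-values rest on differences between libraries that may be technical. In such bulk samples, a lower share of cells with a transcript and less of it per cell cannot be told apart.

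Proteins of the BCL2 family decide whether the outer mitochondrial membrane is opened during apoptosis. BAX and BAK1 form the pores that release cytochrome c, BCL2, MCL1, BCL-XL (from BCL2L1) and BCL-W (from BCL2L2) hold them in check, and the BH3-only proteins BIM (BCL2L11), PUMA (BBC3), NOXA (PMAIP1) and BMF bind and neutralise the anti-apoptotic proteins. BCL2 is a frequent translocation partner of the immunoglobulin heavy chain locus in germinal centre lymphomas, and BIM limits the survival of B cells. These proteins are also controlled by stability, splicing and phosphorylation, which read counts per gene do not show.

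The libraries differed in kind and 1 stood apart. Counts assigned to genes reached 6689320 to 8897051 in the 9 libraries of Karpas-422 and of WSU-DLCL2 with A-485, and 21233752 to 37286727 in the 6 libraries of the clones and of untreated WSU-DLCL2. Of the reads recorded, 43.0% to 55.5% had no unique alignment in the shallow libraries, against 7.73% to 9.24% in the deep ones. Unaligned reads were recorded as 0% in every deep library, against 2.51% to 14.6% in the shallow ones. The shares may therefore have unlike bases. A-485 and untreated libraries of WSU-DLCL2 differ in kind as well as in treatment, which cannot be told apart, and that contrast was not tested. Replicate 3 of untreated WSU-DLCL2 has a title that names no treatment and a treatment entry that says A-485, and was grouped by its title. It differed from replicates 1 and 2 by a chi-square of 201 and 212 per gene, where those replicates differed from each other by 2.66 and the clones from each other by 20.3 to 40.9. All 8 B cell markers looked for had counts in every group, with a summed level of 2854 to 10424 CPM (counts of a gene scaled to the library's counts in genes). All 3 erythroid markers were at 0, and 6 myeloid markers summed to at most 8.47 CPM. The summed level of the 7 T and NK cell markers found was 549 to 588 CPM in Karpas-422 with A-485 and 637 to 682 CPM in untreated Karpas-422, mostly CD3G, with 2 of 7 at 0, and was 0.141 to 17.6 CPM in WSU-DLCL2. That of 7 epithelial and fibroblast markers was 186 to 203 CPM in Karpas-422 with A-485 and 383 to 431 CPM untreated, mostly DCN, with 5 of 7 at 0. The share of reads with no unique alignment also differed between these groups, at 48.8% to 49.0% with A-485 and 54.5% to 55.5% untreated, and so did the share outside annotated genes, at 8.25% to 8.91% with A-485 and 3.61% to 4.54% untreated. The part of these differences in the results on Karpas-422 was not tested.

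The promoters of the members that fell most in Karpas-422 with A-485, BCL2L11 and PMAIP1, are shown with that of BCL2, against which BCL2L11 was measured within each library. Each window runs from 250 bases before to 50 bases after a RefSeq gene start (GRCh38.p14), 5′ to 3′ on the gene's strand. Capitals mark matches on either strand to GTAAACA (the core bound by FOXO factors), TGACG (the core of the cyclic AMP response element), CACGTG (the E-box), GGGCGG (the GC box) and CCAAT. In the windows shown no match overlapped another, and in that of BAX a TGACG overlapped an E-box.
BCL2L11, chr2:111120664-111120963, plus strand: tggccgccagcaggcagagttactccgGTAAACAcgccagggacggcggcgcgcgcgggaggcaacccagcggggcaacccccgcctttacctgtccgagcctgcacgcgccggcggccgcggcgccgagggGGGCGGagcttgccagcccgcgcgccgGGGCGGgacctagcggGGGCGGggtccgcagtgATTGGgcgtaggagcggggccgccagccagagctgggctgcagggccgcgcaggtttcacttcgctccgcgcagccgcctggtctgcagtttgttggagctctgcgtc
PMAIP1, chr18:59899746-59900045, plus strand: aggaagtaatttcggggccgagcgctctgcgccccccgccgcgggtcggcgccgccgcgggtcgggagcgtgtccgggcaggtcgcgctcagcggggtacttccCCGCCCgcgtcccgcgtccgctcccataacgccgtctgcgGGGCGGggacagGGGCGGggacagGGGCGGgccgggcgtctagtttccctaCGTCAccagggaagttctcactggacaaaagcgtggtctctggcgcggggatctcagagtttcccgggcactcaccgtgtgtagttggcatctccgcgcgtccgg
BCL2, chr18:63319720-63320019, minus strand: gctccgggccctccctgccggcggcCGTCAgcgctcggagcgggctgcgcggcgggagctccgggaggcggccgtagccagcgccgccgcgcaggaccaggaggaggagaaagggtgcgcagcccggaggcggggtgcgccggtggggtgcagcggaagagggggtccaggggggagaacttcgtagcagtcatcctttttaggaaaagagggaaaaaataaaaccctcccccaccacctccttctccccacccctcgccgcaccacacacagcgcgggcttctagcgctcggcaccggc
Windows were found for 8 of the 10 members, 10 windows in all; MCL1 and BCL2L2 had none. The BCL2L11 window held 1 FOXO core, 3 GC boxes and 1 CCAAT box, and no other member's window held a FOXO core. Among 35116 promoter windows of the same length, 3.42% held the FOXO core, 24.6% TGACG, 7.26% the E-box, 45.0% the GC box and 34.6% CCAAT. The PMAIP1 window held 4 GC boxes and 1 TGACG, and the BCL2 window 1 TGACG and no GC box. The BAX window held 4 E-boxes, and that of BBC3 held 1. A match is a run of letters, not a bound site.

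Levels by library are given as CPM from library totals, which are not adjusted for composition, and fold changes under TMM scaling, which is. The plot of CPM by library shows all members. In the deep libraries MCL1 had the highest level per kilobase of annotated exon. In the clones it stood at 106 ± 6.11 and in untreated WSU-DLCL2 at 124 ± 24.2 CPM per kilobase (mean ± SD, n = 3 libraries each). In untreated WSU-DLCL2 it was followed by BCL2 at 37.0 ± 1.68, PMAIP1 at 34.5 ± 7.32, BCL2L11 at 27.5 ± 13.3, BMF at 23.5 ± 22.5, BAX at 16.9 ± 3.08, BCL2L1 at 14.2 ± 3.39 and BAK1 at 9.86 ± 1.84 CPM per kilobase. From BCL2 down to BAK1, the ranges of mean ± SD of neighbours overlapped. BCL2L2 at 4.73 ± 0.746 and BBC3 at 0.213 ± 0.120 CPM per kilobase had the lowest means. The wide SD of BMF came from replicate 3. It stood at 10.7, 10.4 and 49.5 CPM per kilobase in untreated replicates 1 to 3, above BCL2L2 in each. In the shallow libraries the order differed, also among their groups. In Karpas-422 with A-485 MCL1 stood at 478 ± 7.28, BCL2L2 at 85.8 ± 1.11, BCL2L11 at 44.0 ± 0.682, BAX at 17.7 ± 2.39 and BCL2 at 17.6 ± 0.446 CPM per kilobase. In WSU-DLCL2 with A-485, MCL1 was followed by BCL2L11 at 133, 134 and 135 CPM per kilobase in libraries 1 to 3. There BCL2 stood at 51.3, 48.3 and 48.5 and BCL2L2 at 26.9, 30.9 and 28.4 CPM per kilobase. BMF had no count in any of the 6 Karpas-422 libraries, which allows a level of up to 0.119 CPM with A-485 and 0.131 CPM untreated (a floor of 3 counts in a whole group, for counting error alone). Levels were not tested across the kinds of library.

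**Figure D1:**
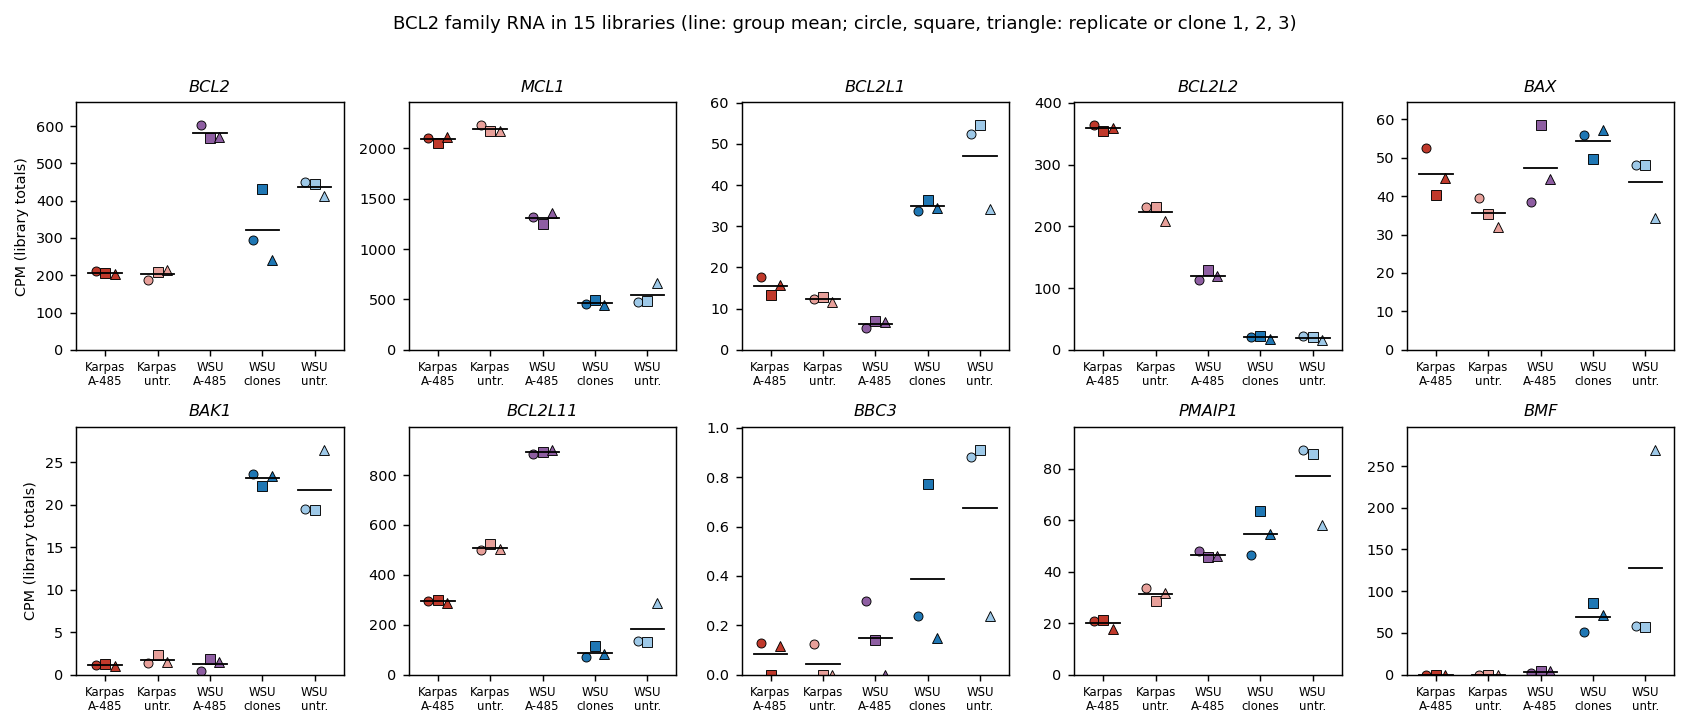
CPM by library totals (y axis, linear, from 0) of the 10 members in the 5 groups (x axis; untr., untreated), with a point per library and a line at the mean of 3. Untreated WSU-DLCL2 replicate 3 (triangle) stands at 270 CPM for BMF and 286 CPM for BCL2L11, above replicates 1 and 2.

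The first comparison asked how these genes differed in Karpas-422 under A-485. The pro-apoptotic BCL2L11 and PMAIP1 fell under either scaling, BCL2L2 rose under either scaling, and the call for BCL2, MCL1, BAX and BAK1 depended on how libraries were scaled. Of the 10 members 8 were tested. Under TMM scaling 5 fell (BCL2, MCL1, BAK1, BCL2L11 and PMAIP1), 1 rose (BCL2L2) and 2 were not called (BCL2L1 and BAX), where 71.4% of all 11846 genes tested were called, 37.6% up and 33.7% down. BAK1 passed the filter on low counts only through the untreated libraries. With the 10 CPM filter, which removes it, 4 members fell and 1 rose. Of the 6552 genes kept by that filter, 81.2% were called, 41.8% up and 39.4% down. With the main filter the median log2 fold change was −0.43 over the 8 tested members, BAK1 included, and 0.08 over all genes tested. With library totals alone, 2 members fell and 2 rose (BCL2L2 and BAX), where 73.8% of all genes were called, 54.5% up and 19.3% down. That scaling moved the fold change of all genes by 0.40 upwards on the log2 scale at the median, so directions are relative to it.

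BCL2L11, whose product BIM binds all the anti-apoptotic members, stood at 294, 297 and 288 CPM in A-485 libraries 1 to 3, against 501, 522 and 504 CPM in untreated libraries 1 to 3. The groups did not overlap and each was tight. Its log2 fold change was −1.20 ± 0.05 under TMM scaling (± SE; adjusted p = 1.63e-10, edgeR's quasi-likelihood test) and −0.80 ± 0.04 with library totals alone (adjusted p = 1.53e-09, same edgeR test), and it was called under every alternative run. BCL2L11 has 25 annotated transcripts. Genes with over 20 transcripts had a median log2 fold change of 0.66 in this comparison, with a lower quartile of 0.0019 and an upper quartile of 1.42, so BCL2L11 lay below the lower quartile. The exons of MIR4435-2HG, a noncoding gene on the other strand, overlap 10.9% of the exonic bases of BCL2L11. It stood at 12.1, 11.2 and 10.7 CPM with A-485, against 8.18, 9.09 and 7.19 CPM untreated, and its log2 fold change was 0.06 ± 0.15 under TMM scaling (adjusted p = 0.718, edgeR), which was not called.

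PMAIP1, which encodes NOXA, a selective binder of MCL1 in particular, stood at 20.8, 21.2 and 17.7 CPM with A-485, against 33.7, 28.4 and 31.7 CPM untreated. The groups did not overlap. It fell by 1.06 ± 0.11 on the log2 scale under TMM scaling (adjusted p = 1.02e-06, edgeR) and by 0.65 ± 0.12 with library totals alone (adjusted p = 0.000222, edgeR). The other BH3-only members did not pass the filter on low counts in this line. BBC3 had 1, 0 and 1 counts with A-485, against 1, 0 and 0 untreated, and BMF had 0 counts throughout. With no filter BBC3 was at 0.35 ± 1.73 on the log2 scale (adjusted p = 0.871, edgeR).

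BCL2 stood at 212, 205 and 202 CPM with A-485, against 186, 208 and 214 CPM untreated, and the groups overlapped. Under TMM scaling it was called lower, at −0.38 ± 0.07 on the log2 scale (adjusted p = 0.000265, edgeR), and with library totals alone it stood at 0.03 ± 0.06 (adjusted p = 0.665, edgeR). MCL1, a short-lived anti-apoptotic protein, stood at 2099, 2053 and 2115 CPM with A-485, against 2234, 2177 and 2175 CPM untreated. Its groups did not overlap, but by a small margin. The fold change on the log2 scale was −0.48 ± 0.05 under TMM scaling (adjusted p = 6.43e-07, edgeR) and −0.07 ± 0.03 with library totals alone (adjusted p = 0.0711, edgeR). BCL2L2, which encodes BCL-W, stood at 364, 355 and 359 CPM with A-485, against 232, 231 and 209 CPM untreated, with a wide gap between the groups. It rose by 0.28 ± 0.05 on the log2 scale under TMM scaling (adjusted p = 0.000343, edgeR) and by 0.68 ± 0.05 with library totals alone (adjusted p = 4.21e-08, edgeR). Exons of BCL2L2-PABPN1, a read-through gene on the same strand, cover 19.4% of the exonic bases of BCL2L2, and it had 0 counts in all Karpas-422 libraries. Reads in exons that genes share may be assigned to none of them, so these counts do not show whether read-through RNA was present. PPP1R3E, on the other strand, overlaps 4.92% of the exonic bases of BCL2L2 and was itself higher with A-485 (1.57 ± 0.12 on the log2 scale). BCL2L1 stood at 17.7, 13.3 and 15.8 CPM with A-485, against 12.3, 12.9 and 11.7 CPM untreated, with no overlap. A log2 fold change of −0.07 ± 0.14 was not called under TMM scaling (adjusted p = 0.673, edgeR), nor was 0.34 ± 0.15 with library totals alone (adjusted p = 0.052, edgeR). The antisense gene ABALON overlaps 43% of the exonic bases of BCL2L1, and its identifier was not among the genes counted. As strand is not stated, the BCL2L1 counts of all groups may include reads of ABALON.

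Of the effectors, BAX stood at 52.5, 40.2 and 44.8 CPM with A-485, against 39.5, 35.3 and 32.1 CPM untreated, and the groups only just did not overlap. It was not called under TMM scaling (−0.05 ± 0.11, adjusted p = 0.706, edgeR) and rose with library totals alone (0.36 ± 0.11, adjusted p = 0.0121, edgeR). BAK1 rested on 9, 11 and 9 counts with A-485, against 11, 18 and 10 counts untreated. A log2 fold change of −0.96 ± 0.34 was called under TMM scaling (adjusted p = 0.021, edgeR), but not with library totals alone (−0.56 ± 0.34, adjusted p = 0.147, edgeR), in DESeq2 (−1.03 ± 0.57, adjusted p = 0.101), without A-485 replicate 3 (−0.90 ± 0.40, adjusted p = 0.0658, edgeR) or without untreated replicate 2 (−0.66, adjusted p = 0.151, edgeR). By CPM from library totals 3 members stood higher in every A-485 library and 4 lower (BAK1, PMAIP1, MCL1 and BCL2L11), where 76.8% of all genes tested did not overlap between the groups. BAK1 is counted among these 4 although it passed the filter only through the untreated libraries.

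**Figure D2:**
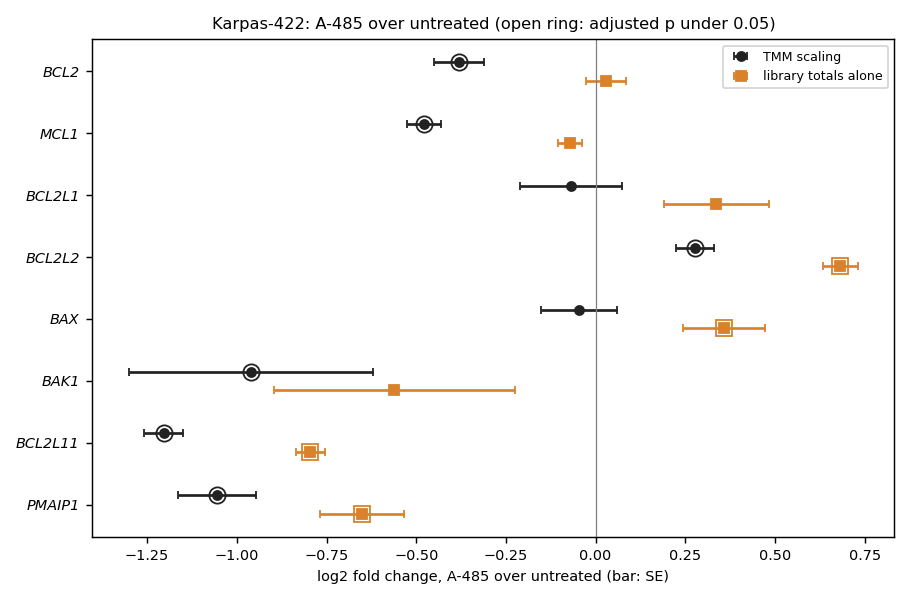
Log2 fold changes of the 8 tested members in Karpas-422, A-485 over untreated (x axis; bars are SE), under TMM scaling (circles) and with library totals alone (squares); rings mark calls. BCL2L11 and PMAIP1 lie below 0 and BCL2L2 above 0 under both, and BCL2 is at −0.38 with TMM and 0.03 without.

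Ratios of counts within a library do not depend on scaling. The ratio of BCL2L11 to BCL2 was 1.38, 1.45 and 1.42 in the A-485 libraries, against 2.69, 2.51 and 2.36 in the untreated libraries. Its mean log2 value was 0.51 ± 0.03 with A-485 and 1.33 ± 0.10 untreated (SD, n = 3 each), a difference of −0.83 (exact permutation test, two-sided p = 0.1, the smallest that 3 against 3 can give). All A-485 libraries held fewer BCL2L11 reads per BCL2 read than any untreated library. For BCL2L11 to MCL1 the mean log2 ratio was −2.83 ± 0.04 with A-485 and −2.11 ± 0.05 untreated, a difference of −0.72 (exact permutation p = 0.1, two-sided). The log2 ratio of MCL1 to BCL2 overlapped, at 3.304, 3.32 and 3.39 with A-485, against 3.59, 3.39 and 3.35 untreated (difference −0.10, exact permutation p = 0.2, two-sided). For BCL2L1 to BCL2 the mean log2 ratio was −3.73 ± 0.19 with A-485 and −4.03 ± 0.14 untreated (difference 0.30, exact permutation p = 0.2, two-sided). In this exact test no ratio can pass 0.05 with 3 libraries a group.

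**Figure D3:**
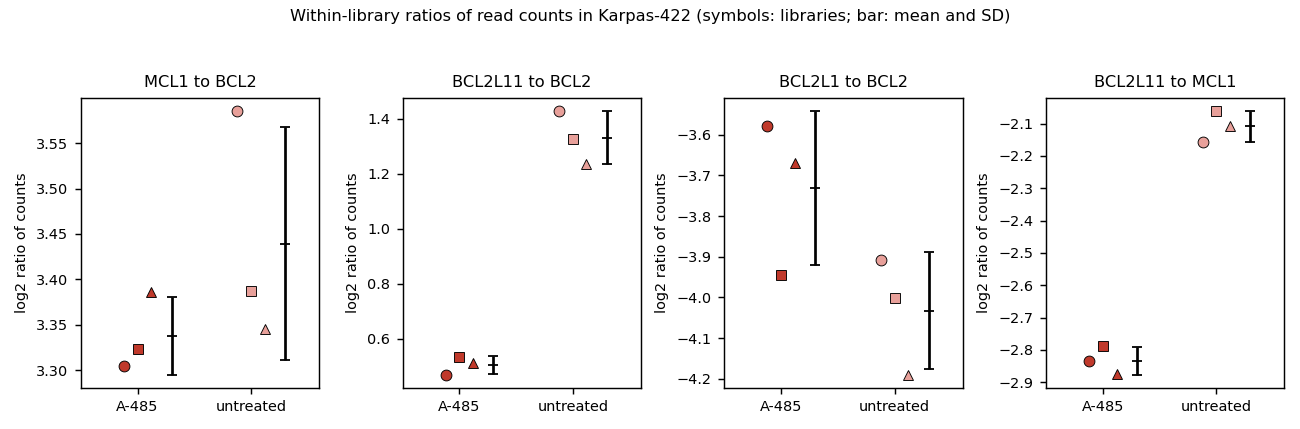
Log2 ratio of read counts (y axis, not from 0) of 4 gene pairs within each Karpas-422 library, A-485 beside untreated; symbols are libraries and bars mean ± SD. The groups are apart for BCL2L11 to BCL2 (0.51 against 1.33) and BCL2L11 to MCL1 (−2.83 against −2.11).

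Other genes of the pathway moved both ways in Karpas-422 under TMM scaling, as did all genes tested. Of all genes tested 71.4% were called, 37.6% up and 33.7% down, which is the share to set beside the calls in each list. Of 11 further BCL2 family genes 5 were tested: HRK and BCL2L13 (−0.32 ± 0.09) fell, BAD rose, and BID (0.25 ± 0.23) and BCL2L12 (−0.31 ± 0.18) were not called. HRK, a BH3-only gene, stood at 1.28, 1.57 and 1.40 CPM with A-485, against 6.72, 7.30 and 6.76 CPM untreated, which is −2.67 ± 0.22 on the log2 scale (adjusted p = 9.78e-08, edgeR). BAD, another BH3-only gene, was at 1.11 ± 0.30 on the same scale (adjusted p = 0.00453, edgeR). Of 7 tested genes of the apoptosome and caspases, CYCS and CASP2 (−0.44 ± 0.05) fell and CASP8 rose. CYCS, which encodes cytochrome c, stood at 603, 617 and 621 CPM with A-485, against 1307, 1192 and 1224 CPM untreated (log2 fold change −1.42 ± 0.05). CASP8, the initiator caspase of death receptors, was at 0.71 ± 0.09. The apoptosome scaffold gene APAF1 was at 0.67 ± 0.29 and just missed the threshold (adjusted p = 0.0506, edgeR).

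Of 6 tested inhibitor of apoptosis genes and antagonists, BIRC2, which encodes the ubiquitin ligase cIAP1, rose (1.31 ± 0.18) as did HTRA2 (1.04 ± 0.35), and 0 fell. Of 6 mitochondrial membrane partners, VDAC1 (−1.40 ± 0.15) and MTCH2 (−0.79 ± 0.07), a receptor for the BH3-only protein BID, fell, while VDAC3 (1.64 ± 0.19) and BNIP3L (0.15 ± 0.06) rose. All 7 genes of turnover and tethering were tested, of which 3 rose and 3 fell. FBXW7, a ubiquitin ligase subunit that marks MCL1 for degradation, rose by 1.58 ± 0.15, and USP9X, which removes ubiquitin from MCL1, fell by 0.27 ± 0.05 on the log2 scale. Of other ubiquitin ligases that act on MCL1, MARCHF5 fell by 0.36 ± 0.06 and HUWE1 was not called (−0.0032 ± 0.22). Of the dynein light chains, DYNLL2, which tethers BMF, fell by 0.87 ± 0.06, and DYNLL1, which tethers BIM, rose by 0.93 ± 0.26. TRIM17, also a ubiquitin ligase gene for MCL1, is counted among those that rose but passed the filter only through the A-485 libraries. It had 28 to 32 counts with A-485 and 1 to 3 untreated. Of 8 tested transcription factor genes 3 rose, among them REL (1.12 ± 0.15), and 2 fell. FOXO1, a factor known to activate BCL2L11, stood at 504, 488 and 505 CPM with A-485, against 932, 1029 and 1026 CPM untreated (−1.41 ± 0.06, adjusted p = 2.2e-10, edgeR). MYC, counted as the other factor that fell, passed the filter only through the untreated libraries, with 3 to 5 counts with A-485 and 38 to 44 untreated. With library totals alone the calls became 2 up and 1 down for the further family genes, 4 and 1 for apoptosome and caspases, 5 and 0 for inhibitors, 2 and 2 for membrane partners, 3 and 1 for turnover and 6 and 2 for transcription factors. Over all genes tested 37.6% were called up and 33.7% down under TMM scaling. With library totals alone these shares were 54.5% up and 19.3% down.

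**Figure D4:**
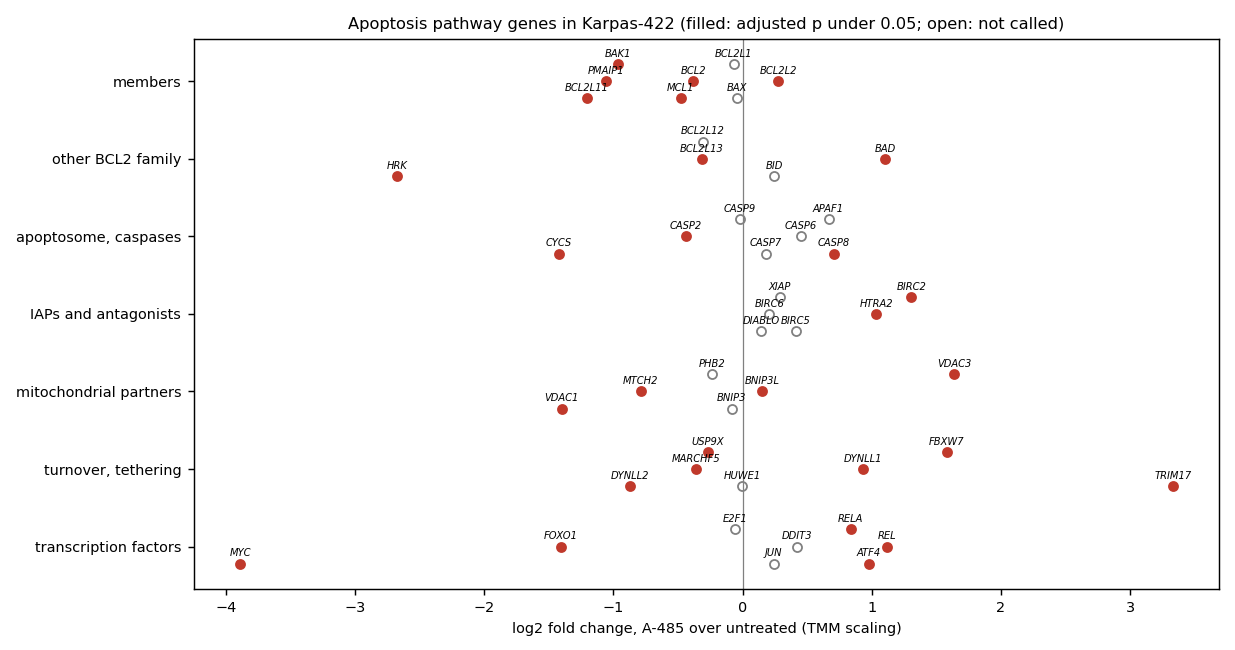
Log2 fold changes, A-485 over untreated in Karpas-422 under TMM scaling (x axis), of the tested members and of 6 lists of pathway genes (rows; IAPs, inhibitor of apoptosis proteins); filled points are called. Calls lie on both sides of 0 in every list except the inhibitors, where both are above 0. Of all genes tested 71.4% were called.

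Next, WSU-DLCL2 clones labelled BCL11A knockout were compared with the untreated line. The RNA of BCL11A itself was at 58.8, 69.6 and 51.9 CPM in clones 1 to 3, against 46.8, 45.7 and 73.5 CPM in untreated replicates 1 to 3. The groups overlapped, so this RNA does not check the labels. Over all 3 untreated libraries no member was called (0 up, 0 down of 10 tested), where 0% of all 16152 genes were called in edgeR, 1117 genes had an unadjusted p under 0.05, DESeq2 called 315 genes (1.95%) and limma-voom 2 (0.0124%), with no member among either. The median log2 fold change was −0.44 over the 10 members and −0.01 over all genes tested. Without untreated replicate 3, BCL2L1 alone of the members was called, as lower in the clones, where 2.11% of 16607 genes were called, 0.422% up and 1.69% down.

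BCL2L1, which encodes BCL-XL, stood at 33.6, 36.4 and 34.4 CPM in the clones, against 52.5, 54.6 and 34.2 CPM in the untreated libraries. Untreated replicate 3 lay among the clones, and the other untreated libraries well above them. On the log2 scale this was −0.44 ± 0.20 with all libraries (adjusted p = 0.763, edgeR) and −0.63 ± 0.08 without untreated replicate 3 (adjusted p = 0.0193, edgeR). PMAIP1 had the same pattern, at 46.3, 63.4 and 54.6 CPM in the clones, against 87.4, 85.6 and 58.2 CPM untreated. Its log2 fold change was −0.49 ± 0.21 with all libraries (adjusted p = 0.724, edgeR) and −0.67 ± 0.12 without replicate 3 (adjusted p = 0.0597, edgeR), and neither passed the test.

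BCL2 varied among the clones, at 293, 430.5 and 242 CPM in clones 1 to 3, against 450.2, 444 and 413 CPM untreated. Clone 2 lay within the range of the untreated libraries and clones 1 and 3 below it. BCL2 was at −0.44 ± 0.21 on the log2 scale with all libraries (adjusted p = 0.763, edgeR) and −0.49 ± 0.22 without untreated replicate 3 (adjusted p = 0.311, edgeR). MCL1 stood at 458, 493 and 441 CPM in the clones, against 471, 487 and 662 CPM untreated, and BCL2L2 at 20.4, 22.4 and 17.4 CPM in the clones, against 22.5, 20.6 and 16.4 CPM untreated. Both sets overlapped, with log2 fold changes of −0.21 ± 0.15 for MCL1 and 0.02 ± 0.18 for BCL2L2.

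BCL2L11 stood at 68.5, 114 and 82.1 CPM in the clones, against 136, 129 and 286 CPM untreated, and the groups did not overlap. It was 1 of 2 members with no overlap, beside BAX, where 16.6% of all genes tested did not overlap. Its log2 fold change was −1.05 ± 0.35 with all libraries (adjusted p = 0.591, edgeR) and −0.59 ± 0.20 without untreated replicate 3 (adjusted p = 0.197, edgeR), and was called in neither. MIR4435-2HG, which overlaps it, stood at 7.21, 8.42 and 7.58 CPM in the clones, against 14.1, 12.6 and 8.24 CPM untreated, and was called without untreated replicate 3 (−0.79 ± 0.13, adjusted p = 0.0428, edgeR) but not with it (−0.59 ± 0.25, adjusted p = 0.724, edgeR). As strand is not stated, reads of the overlap cannot be assigned to either gene.

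BMF, which responds to loss of attachment in other cell types, differed within the untreated group. It stood at 51.2, 85.4 and 71.9 CPM in the clones, against 58.2, 56.8 and 270 CPM untreated. Replicate 3 set the direction: the log2 fold change was −0.87 ± 0.63 with all libraries (adjusted p = 0.853, edgeR) and 0.27 ± 0.20 without it (adjusted p = 0.528, edgeR). BBC3 had 7, 27 and 5 counts in the clones, against 30, 34 and 5 untreated, and was not called (−0.84 ± 0.73, adjusted p = 0.872, edgeR). Single libraries moved that value, to −1.82 without clone 2, −0.47 without clone 3 and −1.20 without untreated replicate 3, and it was called in none of these. BAX stood at 56.0, 49.8 and 57.3 CPM in the clones, against 48.2, 48.2 and 34.4 CPM untreated (0.32 ± 0.18, adjusted p = 0.821, edgeR). BAK1 stood at 23.7, 22.3 and 23.4 CPM in the clones, against 19.5, 19.4 and 26.5 CPM untreated (0.09 ± 0.17, adjusted p = 0.921, edgeR).

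**Figure D5:**
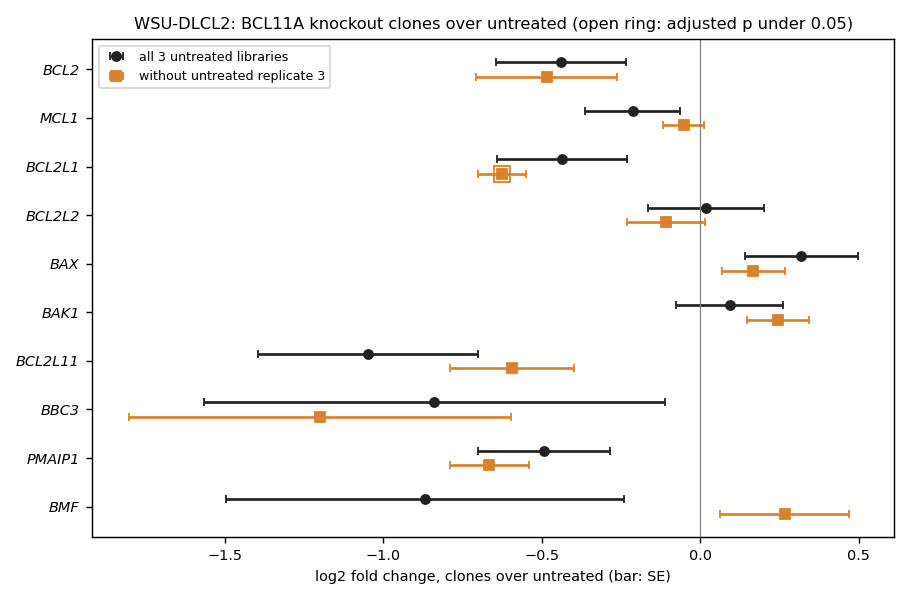
Log2 fold changes of the 10 members, clones labelled BCL11A knockout over untreated WSU-DLCL2 (x axis; bars are SE), with all untreated libraries (circles) and without untreated replicate 3 (squares); the ring marks the 1 call. BMF is at −0.87 with that library and 0.27 without it, and BCL2L1 is called at −0.63 without that library.

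In the pathway lists no gene was called over all libraries in edgeR's test. DESeq2 called DDIT3, a stress-induced factor, as lower (−1.40 ± 0.35, adjusted p = 0.00669), where edgeR did not (−1.39 ± 0.33, adjusted p = 0.345). Without untreated replicate 3, edgeR called 2 pathway genes, where 2.11% of all 16607 genes tested were called. BCL2A1, an anti-apoptotic gene under NF-kB, stood at 2.93, 2.61 and 3.34 CPM in the clones, against 17.3, 19.1 and 2.45 CPM untreated (−2.62 ± 0.17 without replicate 3, adjusted p = 0.00453, and −2.13 ± 0.71 with it, adjusted p = 0.591, edgeR). BIRC3, which encodes cIAP2 and is also induced by NF-kB, stood at 108, 112 and 86.4 CPM in the clones, against 294, 304 and 104 CPM untreated (−1.56 ± 0.11 without replicate 3, adjusted p = 0.00548, and −1.20 ± 0.40 with it, adjusted p = 0.598, edgeR). For both genes untreated replicate 3 was at the level of the clones. Without that library the untreated group holds only replicates 1 and 2, whose chi-square of 2.66 per gene is far below the 20.3 to 40.9 between clones.

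The lines were then compared under A-485, the one state in which both have shallow libraries; the Karpas-422 libraries with A-485 are those of the first comparison. These libraries also differed in quality: 2.51% to 2.86% of reads were not aligned in Karpas-422 and 14.1% to 14.6% in WSU-DLCL2, and 8.25% to 8.91% lay outside annotated genes in Karpas-422 and 10.95% to 11.9% in WSU-DLCL2. The part of this in the results was not tested. Karpas-422 held more RNA of MCL1, BCL2L1 and BCL2L2, and WSU-DLCL2 more of BCL2 and of the BH3-only BCL2L11, PMAIP1 and BMF. Of 8 members tested 3 were called higher in Karpas-422 and 4 lower, where 72.4% of 12472 genes were called, 38.1% up and 34.3% down, and 75.1% did not overlap. BMF passed the filter only through WSU-DLCL2; with the 10 CPM filter, which removes it, 7 members were tested, of which 3 were higher and 3 lower. BAX was not called (−0.12 ± 0.15, adjusted p = 0.473, edgeR). BAK1 and BBC3 did not pass the filter, and with no filter stood at −0.25 ± 0.43 (adjusted p = 0.649, edgeR) and −0.86 ± 1.38 (adjusted p = 0.619, edgeR). With the 10 CPM filter the median log2 fold change was −0.14 over the 7 members and −0.01 over all genes tested. With the main filter, which keeps BMF, it was −0.71 over the 8 members and 0.07 over all genes tested.

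BCL2 stood at 212, 205 and 202 CPM in Karpas-422 with A-485, against 603, 569 and 571 CPM in WSU-DLCL2 with A-485, or −1.57 ± 0.05 on the log2 scale (adjusted p = 9.33e-15, edgeR). BCL2L11 stood at 294, 297 and 288 CPM in Karpas-422, against 886, 894 and 902 CPM in WSU-DLCL2 (−1.68 ± 0.05, adjusted p = 8.79e-16, edgeR). The ratio of BCL2L11 to BCL2 was 1.38 to 1.45 in Karpas-422 and 1.47 to 1.58 in WSU-DLCL2. MCL1 stood at 2099, 2053 and 2115 CPM in Karpas-422, against 1322, 1252 and 1363 CPM in WSU-DLCL2 (0.60 ± 0.05, adjusted p = 2.9e-09, edgeR). The log2 ratio of MCL1 to BCL2 was 3.304 to 3.39 in Karpas-422 with A-485, and 1.13 to 1.25 in WSU-DLCL2 with A-485.

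BCL2L2 stood at 364, 355 and 359 CPM in Karpas-422, against 113, 129 and 119 CPM in WSU-DLCL2, which made it 2.84-fold higher in Karpas-422 (log2 1.504 ± 0.056). BCL2L1 stood at 17.7, 13.3 and 15.8 CPM in Karpas-422, against 5.38, 7.06 and 6.70 CPM in WSU-DLCL2, 2.31-fold higher in Karpas-422 (log2 1.21 ± 0.16). PMAIP1 stood at 20.8, 21.2 and 17.7 CPM in Karpas-422, against 48.0, 45.6 and 46.2 CPM in WSU-DLCL2 (log2 −1.30 ± 0.10). BMF had 0 counts over the Karpas-422 libraries and 70 over those of WSU-DLCL2, which makes it at least 28.8-fold lower in Karpas-422 (with the same floor). Of the other family genes, BIK, a BH3-only gene, had 0 counts in Karpas-422 and 226 in WSU-DLCL2, at least 92.9-fold lower in Karpas-422. BCL2A1 had 1 count in Karpas-422 and 96 in WSU-DLCL2, a ratio of WSU-DLCL2 to Karpas-422 of 118 (95% counting interval 20.8 to 4726, exact binomial).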

How the data were processed

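The authors deposited a table of read counts per gene for each of 15 libraries. STAR 2.5.3a, RSEM and the build GRCh37 (hg19) are named per the submitters' processing notes; the sources used here give neither their order and settings nor the annotation, counting program, kit or strand. Values are whole numbers that end in 5 summary lines, so they were used as raw counts. The summary lines, 27.3% to 70.2% of the reads recorded, stayed out of library sizes and tests. The labels list 17 samples, of which 3 are runs of untreated WSU-DLCL2 replicate 3 with 1 file, used as 1 library. Symbols came by identifier from a gene name table; numbers of transcripts, exonic lengths and overlaps came from GENCODE 29 (GRCh38), and coordinates from RefSeq (GRCh38.p14), not from the counts' build.

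Comparisons used edgeR 4.0.16 in R 4.3.3 on the groups compared: TMM scaling, filterByExpr, robust quasi-likelihood fits, two-sided tests, Benjamini-Hochberg adjustment over all genes kept and a threshold of 0.05. SEs were taken from the F statistic and the log2 fold change. Ratios added 0.5 to each count. The fit was tested on simulated data, in which some genes changed by folds balanced between up and down. That test therefore does not bear on the choice between TMM scaling and library totals. Alternatives were library totals alone, DESeq2 1.42.0 and its size factors, limma-voom (limma 3.58.1), no filter, a filter at 10 CPM, a replicate block and each library left out. The members, the 6 pathway lists and the 5 marker lists were chosen with earlier results of these data known. All members are named, and of the pathway lists mainly called genes and those of smallest p; APAF1, BIK and the genes that overlap a member were added after their values were seen. Numbers 1 to 3 were not used as pairs. A gene withheld from this text is not reported here.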

Additional observations from a re-analysis of the deposited data

Results flagged for a closer look

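For 3 members the A-485 libraries lay on opposite sides of the untreated ones in the lines, with every library of each group on that side (CPM from library totals). The difference between lines was not tested, and in WSU-DLCL2 the treatment cannot be told apart from the kind of library. BCL2L11 differed by a log2 ratio of means of −0.80 in Karpas-422 and 2.29 in WSU-DLCL2, a gap of −3.08. MCL1 was at −0.07 in Karpas-422 and 1.28 in WSU-DLCL2, a gap of −1.35. BCL2L1 was at 0.34 in Karpas-422 and −2.88 in WSU-DLCL2, a gap of 3.23. The direction for BCL2L1 in Karpas-422 turned with the scaling: under TMM scaling it stood at −0.07, and it was called under neither.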

How the results depend on the processing

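With library totals alone in Karpas-422, 2 members were called up and 2 down, BCL2 (0.028), BCL2L1 (0.34) and BAX (0.36) changed sign, and MCL1 (−0.07) and BAK1 (−0.56) lost their calls. BCL2L1 and BAX, not called under TMM scaling, also stood above 0 with the 10 CPM filter (0.071 and 0.094), and ranged over −0.17 to 0.032 (BCL2L1) and −0.15 to 0.036 (BAX) with 1 library left out, above 0 only without A-485 replicate 2. BAK1 also lost its call in DESeq2 and without A-485 replicate 3 or untreated replicate 2. The 10 CPM filter tested fewer genes and called 5323 in Karpas-422 and 5722 between the lines. In the clones DESeq2 called 315 genes, limma-voom 2 and no filter 20. Leaving out each library gave 7907 to 8838 called genes in Karpas-422, with 1 member up and 4 to 5 down, 8655 to 9358 between the lines, with 3 up and 4 down, and 0 to 351 in the clones, with 0 up and 0 to 1 down, the highest without untreated replicate 3. With 1 library left out BMF ranged over −1.21 to 0.27 and BCL2L2 over −0.11 to 0.12; both changed sign without untreated replicate 3, and BCL2L2 also without clone 2 (−0.04). The cause of these changes was not tested.

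With a replicate block 8251 genes were called in Karpas-422, 0 in the clones and 8666 between the lines, and the same number of members as without it. Same-numbered libraries correlated in their deviations at 0.02, 0.06 and −0.04 in Karpas-422, at 0.10, 0.03 and 0.23 for clones and at −0.18, −0.10 and −0.0033 between lines, and not every library correlated best with its own number. BAK1 and BBC3 in Karpas-422 and BMF in the shallow libraries rest on few counts, which limits what could be detected.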
